A study of Homo sapiens with 6 samples.

Results

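Retinoid receptors and the proteins that supply and remove their ligand were followed through 9 genes: the retinoid X receptors RXRA, RXRB and RXRG, the retinoic acid receptors RARA, RARB and RARG, the intracellular retinoic acid binding protein CRABP2, the retinaldehyde reductase DHRS3 and the retinoic acid hydroxylase CYP26B1. The genes were chosen by name and function, with earlier results of these data known, and all 9 were found by symbol among the 57914 genes of the deposited tables. RNA came from A375, a human melanoma line long kept in culture. Before sorting, its cells were loaded with Aldefluor, a substrate that turns into a retained fluorescent product where aldehyde dehydrogenases (ALDH) are active. The 5% of cells with the brightest signal made up the ALDH_High group and the 5% with the dimmest signal the ALDH_Low group, each with 3 RNA libraries. Both groups were sorted parts of the same line grown in the same medium, the labels name no drug or genetic change, and no unsorted cells were analysed here. The labels do not say whether the 3 libraries of a group came from separate cultures, so p-values measure the spread between these libraries, which may be technical.

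Retinoic acid is made from retinol in consecutive oxidations. Retinol dehydrogenases such as RDH10 form retinaldehyde, which DHRS3 reduces back to retinol, and retinaldehyde dehydrogenases such as ALDH1A3 turn it into retinoic acid. CRABP2 carries retinoic acid to the nucleus, where it binds an RAR that is paired with an RXR on DNA. Without ligand the pair holds corepressors at its target genes, and with ligand it recruits coactivators. CYP26 enzymes oxidise retinoic acid and so clear it. RARB, CYP26 genes, CRABP2 and DHRS3 are themselves textbook targets of the pathway. RXRG is the RXR isotype with the most restricted tissue range, and is known in the neural crest lineage from which melanocytes derive.

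RAR and RXR pairs bind direct repeats of a 6-base motif. The 300-base promoter windows of RefSeq (GRCh38.p14), from 250 bases before to 50 bases after a start, were searched on both strands for pairs of the motifs AGGTCA or AGTTCA or GGTTCA or GGGTCA spaced by 5, 2 or 1 bases. The 9 genes had 18 windows. A repeat with spacing 5 was found in 1 of them, at RARB, and in 31 of all 35116 windows (0.0883%). Spacing 2 was found in none of the 18 windows and in 14 of all windows (0.0399%), and spacing 1 in none of the 18 and in 46 of all windows (0.131%). A match is a description of letters and not a bound site, and no match says only that these letters are not in this window. The RARB window, chr3:25428013-25428312 on the plus strand, is shown because it alone holds a repeat. Its repeated motifs are in capitals and span chr3:25428210-25428226, 53 to 37 bases before the start. The windows of the 3 genes that passed the test between the groups are shown beside it, all on the minus strand and without such a repeat. They are RXRG at chr1:165445077-165445376, CRABP2 at chr1:156705735-156706034 and CYP26B1 at chr2:72147813-72148112. Each is written 5′ to 3′ in the direction of its gene.
RARB: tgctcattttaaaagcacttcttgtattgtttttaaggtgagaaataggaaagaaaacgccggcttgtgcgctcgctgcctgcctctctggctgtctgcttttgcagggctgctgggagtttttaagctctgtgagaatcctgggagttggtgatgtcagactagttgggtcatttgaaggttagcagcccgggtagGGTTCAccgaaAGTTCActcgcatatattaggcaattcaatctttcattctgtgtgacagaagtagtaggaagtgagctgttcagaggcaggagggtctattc
RXRG: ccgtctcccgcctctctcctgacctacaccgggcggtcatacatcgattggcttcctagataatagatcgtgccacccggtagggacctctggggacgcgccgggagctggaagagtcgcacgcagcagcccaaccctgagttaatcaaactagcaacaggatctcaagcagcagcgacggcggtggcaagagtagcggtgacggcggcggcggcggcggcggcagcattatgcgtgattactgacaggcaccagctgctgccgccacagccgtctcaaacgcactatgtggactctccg
CRABP2: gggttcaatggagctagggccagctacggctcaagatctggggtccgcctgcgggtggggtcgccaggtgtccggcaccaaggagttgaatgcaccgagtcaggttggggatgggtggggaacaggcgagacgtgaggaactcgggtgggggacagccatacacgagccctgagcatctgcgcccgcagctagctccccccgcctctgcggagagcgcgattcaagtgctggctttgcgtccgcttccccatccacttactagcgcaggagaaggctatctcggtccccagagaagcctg
CYP26B1: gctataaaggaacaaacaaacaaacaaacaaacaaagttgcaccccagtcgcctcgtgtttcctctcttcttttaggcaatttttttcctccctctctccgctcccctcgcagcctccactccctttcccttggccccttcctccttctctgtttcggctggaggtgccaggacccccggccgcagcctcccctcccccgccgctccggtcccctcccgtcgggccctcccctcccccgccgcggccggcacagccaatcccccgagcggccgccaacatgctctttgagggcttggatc

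Total counts per library lay between 26692868 and 37830603. Of all genes, 17047 passed the filter on low counts and were tested with edgeR's quasi-likelihood test. At a Benjamini-Hochberg adjusted p below 0.05, 3513 genes (20.6%) differed between the groups, 1838 (10.8%) higher and 1675 (9.83%) lower in ALDH_High, and the median log2 fold change was -0.013. The first principal component held 64.2% of the variance and separated the groups. On the second, with 14.5%, ALDH_High library 1 stood at 49.1 and the other ALDH_High libraries at -22.0 and -32.5. Of the 9 melanocyte lineage markers, SOX10, S100A1 and S100B were higher in ALDH_High, MITF was lower, PMEL did not pass, and 4 were too low to test, among them MLANA and TYR at 3 counts or fewer in every library. The summed level of these 9 markers was 658 to 887 CPM in ALDH_High and 208 to 235 CPM in ALDH_Low (CPM, counts relative to the scaled library size). Most of it was SOX10, at 810, 615 and 585 CPM in ALDH_High and 174, 197 and 210 CPM in ALDH_Low. Markers of other cells had lower sums than the lineage markers in every library. The 5 white blood cell markers summed to 2.84 to 6.90 CPM in ALDH_High and 1.87 to 2.73 CPM in ALDH_Low, with LYZ higher and CD14 lower in ALDH_High and with at most 4 counts of PTPRC and 2 of CD3E. The 2 endothelial markers summed to 0.316 to 1.38 CPM in ALDH_High and 0.791 to 1.20 CPM in ALDH_Low, and PECAM1, the one high enough to test, did not pass. The 4 epithelial markers summed to 10.6 to 16.0 CPM in ALDH_High and 8.23 to 11.9 CPM in ALDH_Low, with KRT5 lower in ALDH_High. Most of these sums came from the other epithelial marker high enough to test, at 15.6, 10.3 and 10.2 CPM in ALDH_High. In ALDH_Low that marker had 6.95, 6.93 and 10.2 CPM, and it did not pass (0.58, SE 0.23, adjusted p = 0.108, edgeR). Of 15 genes of G2 and M phase, 10 were higher and none lower in ALDH_High, with summed levels of 3715 to 4177 CPM against 2306 to 2614 CPM. The part of lineage, cell cycle or other cells in the results that follow was not tested.

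All 9 retinoid genes passed the filter. RXRG rose in ALDH_High (1 of 9, where 10.8% of all genes tested were higher), CRABP2 and CYP26B1 fell (2 of 9, where 9.83% were lower), and the other 6 did not pass the test. Their median log2 fold change was 0.053. The ranges of the groups did not overlap in CPM for RXRG and CRABP2 (2 of 9, where 37.8% of all genes tested did not overlap). ALDH_High library 1 had the highest CPM of its group in 8 of the 9 genes and the lowest in the ninth, CRABP2. ALDH_Low library 1 was the highest of its group in 6 of the 9. Without ALDH_High library 1, RXRG was still the only one of the 9 that was higher, and RARA joined CRABP2 and CYP26B1 among the lower genes.

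**Figure D1:**
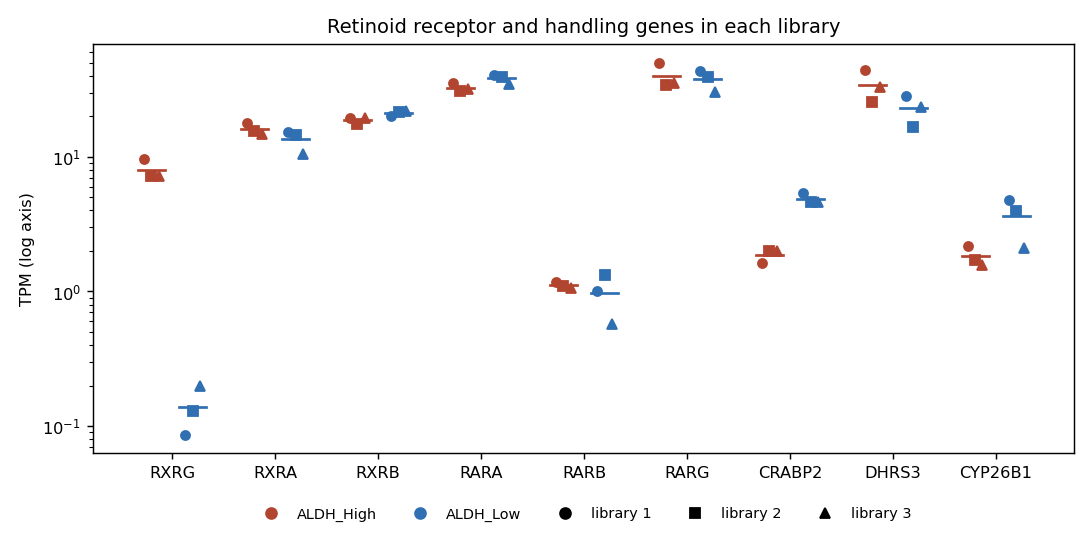
TPM (the authors' length-corrected transcript level, log axis) of the 9 retinoid genes in each library, with ALDH_High in red, ALDH_Low in blue, a symbol for each library number and a bar at the mean of each group of 3 libraries. RXRG lies between 7.21 and 9.63 TPM in ALDH_High and between 0.0860 and 0.200 TPM in ALDH_Low, and CRABP2 is the other gene with a wide gap, in the opposite direction.

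RXRG (ENSG00000143171, chr1:165400922-165445355, minus strand; all gene spans are from GENCODE 44 on GRCh38) was near the limit of detection in ALDH_Low and clearly present in ALDH_High. It had 355, 327 and 315 counts in ALDH_High libraries 1 to 3 and 5, 5 and 8 counts in ALDH_Low libraries 1 to 3. These correspond to 14.0, 9.46 and 9.23 CPM against 0.130, 0.167 and 0.288 CPM. All ALDH_High libraries lay far above all ALDH_Low libraries. The log2 fold change was 5.82 (SE 0.34), or 56.4-fold, with an adjusted p of 5.6e-06 by edgeR's quasi-likelihood test. Among the genes tested, 10 had a higher log2 fold change, and RXRG ranked 33 by p. The gene passed the filter only through its ALDH_High libraries. In bulk RNA, fewer cells that express a gene and less RNA in each cell cannot be told apart. The exact two-sided permutation test over the 6 libraries gave p = 0.1, the smallest that 3 against 3 allows.

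RXRA (ENSG00000186350, chr9:134317098-134440585, plus strand), a broadly expressed RXR, had 57.3, 44.8 and 42.0 CPM in ALDH_High and 46.4, 43.5 and 33.8 CPM in ALDH_Low. The groups overlapped. Its log2 fold change of 0.22 (SE 0.16) did not pass (adjusted p = 0.397, edgeR), with values of 0.090 when ALDH_High library 1 and 0.093 when ALDH_Low library 3 was left out.

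RXRB (ENSG00000204231, chr6:33193588-33200665, minus strand), likewise broadly expressed, had 38.9, 32.1 and 34.4 CPM in ALDH_High and 37.9, 40.8 and 44.4 CPM in ALDH_Low. The groups overlapped in CPM through ALDH_High library 1 and ALDH_Low library 1, while in TPM the ALDH_Low libraries, from 20.0 to 22.1, all lay above the ALDH_High libraries, from 17.6 to 19.4. RXRB had a log2 fold change of -0.22 (SE 0.12) and did not pass (adjusted p = 0.252, edgeR), and the value was -0.15 without ALDH_High library 2. By annotation RXRB overlaps SLC39A7 on the opposite strand by 361 bases.

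The make-up of the RXR isotypes was compared per length, as each gene's percent of the summed TPM of RXRA, RXRB and RXRG. RXRG made up 20.5%, 17.9% and 17.4% of RXR transcripts in ALDH_High libraries 1 to 3 and 0.242%, 0.354% and 0.608% in ALDH_Low libraries 1 to 3. The means were 18.6% ± 1.70 (SD, n = 3) and 0.401% ± 0.187 (SD, n = 3), with p = 0.1 by the exact permutation test. The RXRB share was 43.9% ± 2.75 (SD, n = 3) in ALDH_High and 61.0% ± 5.57 (SD, n = 3) in ALDH_Low. Since the shares of a library sum to the whole, a larger RXRG share lowers the others by construction. As a percent of RXRA and RXRB alone, RXRB was at 51.9%, 53.2% and 56.5% in ALDH_High and 56.4%, 59.8% and 67.6% in ALDH_Low, and the groups overlapped. The RXRA share was 37.6% ± 1.40 (SD, n = 3) and 38.6% ± 5.75 (SD, n = 3), and its groups overlapped (exact permutation p = 0.8). Summed RXR transcripts came to 46.9, 40.4 and 41.6 TPM in ALDH_High and 35.5, 36.2 and 32.9 TPM in ALDH_Low. All ALDH_High sums were above all ALDH_Low sums (43.0 ± 3.48 against 34.9 ± 1.78, SD, n = 3 each, exact permutation p = 0.1). RXRG, at a mean of 8.02 TPM in ALDH_High and 0.138 TPM in ALDH_Low, entered that sum with the widest difference of the 3 isotypes. Over the 10 shares, sums and ratios computed here no p was below 0.1, the smallest this design allows, so none can pass 0.05 before or after adjustment.

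**Figure D2:**
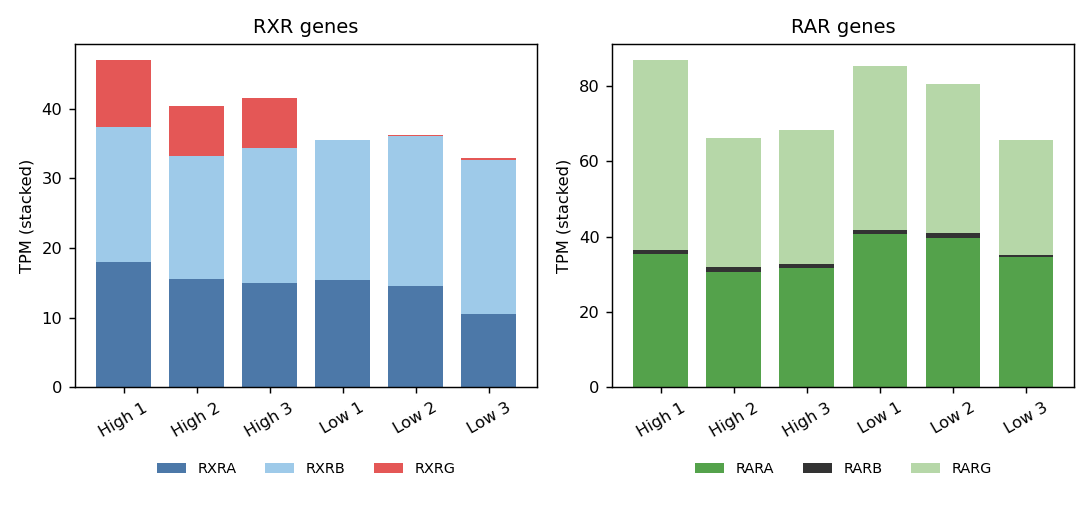
Stacked TPM of the RXR genes (left) and RAR genes (right) in each of the 6 libraries, with a linear axis from 0. The RXRG segment is visible in the 3 ALDH_High bars, where it makes up 17.4% to 20.5%, and barely in the ALDH_Low bars, while the RAR bars of the groups overlap in height.

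RARA (ENSG00000131759, chr17:40309180-40357643, plus strand), a broadly expressed retinoic acid receptor, had 60.8, 47.8 and 48.2 CPM in ALDH_High and 66.1, 64.0 and 59.4 CPM in ALDH_Low. Only ALDH_High library 1 reached into the range of ALDH_Low. The log2 fold change was -0.27 (SE 0.13, adjusted p = 0.167, edgeR) and did not pass. Without ALDH_High library 1 it was -0.38 and passed (adjusted p = 0.0262, edgeR).

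RARG (ENSG00000172819, chr12:53210567-53232980, minus strand), the receptor known above all in skin, had 93.5, 57.8 and 58.2 CPM in ALDH_High and 76.0, 69.2 and 56.4 CPM in ALDH_Low. The ALDH_Low values lay inside the span of ALDH_High but for the lowest. RARG differed by 0.053 on the log2 scale (SE 0.19, adjusted p = 0.888, edgeR), and it turned to -0.20 without ALDH_High library 1 and to -0.059 without ALDH_Low library 3, neither of which passed.

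RARB (ENSG00000077092, chr3:24687887-25597932, plus strand), the receptor gene that is itself a classic retinoic acid target through the promoter repeat printed above, was low in both groups. It had 49, 56 and 52 counts in ALDH_High and 60, 61 and 26 counts in ALDH_Low, or 1.93, 1.62 and 1.52 CPM against 1.56, 2.04 and 0.935 CPM. The ALDH_Low libraries spread on both sides of the ALDH_High libraries. RARB differed by 0.16 on the log2 scale (SE 0.33, adjusted p = 0.798, edgeR), and it turned to -0.088 without ALDH_Low library 3.

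Summed RAR transcripts were 73.8 ± 11.3 TPM in ALDH_High and 77.1 ± 10.3 TPM in ALDH_Low (SD, n = 3 each, exact permutation p = 1). The sign of this difference turned when ALDH_High library 2 (0.48 TPM) or ALDH_Low library 1 (0.78 TPM) was left out. RARG made up 57.9%, 51.9% and 51.9% of RAR transcripts in ALDH_High and 50.9%, 49.2% and 46.4% in ALDH_Low. RARA made up 40.7%, 46.4% and 46.5% in ALDH_High and 47.9%, 49.2% and 52.8% in ALDH_Low. Neither share overlapped between the groups (53.9% ± 3.46 against 48.8% ± 2.30 for RARG and 44.6% ± 3.31 against 49.9% ± 2.53 for RARA, SD, n = 3 each, exact permutation p = 0.1 for both). With RARB so low, the RARG and RARA shares are near complements and amount to 1 observation. Without ALDH_High library 1 the differences shrank from 5.10 to 3.10 percentage points for RARG and from -5.39 to -3.48 for RARA. RARB made up 1.53% ± 0.156 and 1.23% ± 0.386 (SD, n = 3 each) and its groups overlapped (exact permutation p = 0.3).

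CRABP2 (ENSG00000143320, chr1:156699606-156705816, minus strand), which hands retinoic acid to RARs, was lower in ALDH_High. It had 27, 41 and 39 counts in ALDH_High and 128, 84 and 84 counts in ALDH_Low, or 1.07, 1.19 and 1.14 CPM against 3.32, 2.81 and 3.02 CPM. Every ALDH_High library lay below every ALDH_Low library, and within a group the values were close. The log2 fold change was -1.43 (SE 0.25), or 2.69-fold lower, with an adjusted p of 0.00299 (edgeR). An unnamed RNA gene (ENSG00000285570) is annotated on the opposite strand over 5152 bases of CRABP2, and use of strand in counting is not given in the sources used here. FABP5, which carries retinoic acid to PPARD, did not pass (0.14, SE 0.13, adjusted p = 0.511, edgeR). Per length, the log2 ratio of CRABP2 to FABP5 was -6.57, -6.23 and -6.37 in ALDH_High and -4.85, -4.74 and -4.87 in ALDH_Low. FABP5 transcripts thus outnumbered those of CRABP2 in all 6 libraries, and by more in each ALDH_High library (-6.39 ± 0.17 against -4.82 ± 0.074, SD, n = 3 each, exact permutation p = 0.1).

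DHRS3 (ENSG00000162496, chr1:12567910-12618210, minus strand), which reduces retinaldehyde to retinol, was among the most abundant of the 9 per length. It had 54.9, 28.6 and 36.4 CPM in ALDH_High and 33.4, 19.5 and 29.2 CPM in ALDH_Low. The groups overlapped, since ALDH_High library 2 lay below ALDH_Low libraries 1 and 3. In each pair of equal number, the ALDH_High library was the higher. The log2 fold change was 0.54 (SE 0.25, adjusted p = 0.166, edgeR) and did not pass. With the replicate number as a block it was 0.53 and passed (adjusted p = 0.0182, edgeR). Without ALDH_High library 1 it was 0.26, and without ALDH_Low library 2 it was 0.35. The log2 ratio of DHRS3 to RDH10, which works in the opposite direction, was 1.41 ± 0.70 in ALDH_High and 0.68 ± 0.68 in ALDH_Low (SD, n = 3 each, TPM, exact permutation p = 0.3 without pairing). It was higher in ALDH_High in 3 of 3 pairs of equal number, by 0.96, 0.78 and 0.46, and by 0.41 and 0.34 over all without ALDH_High library 1 and without ALDH_Low library 2. An exact test on 3 pairs cannot give a two-sided p below 0.25.

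CYP26B1 (ENSG00000003137, chr2:72129238-72147862, minus strand), which clears retinoic acid, was lower in ALDH_High, with a call that hung on single libraries. It had 117, 114 and 100 counts in ALDH_High and 371, 235 and 123 counts in ALDH_Low, or 4.61, 3.30 and 2.93 CPM against 9.62, 7.86 and 4.42 CPM. The groups overlapped through ALDH_High library 1 and ALDH_Low library 3. Another unnamed RNA gene (ENSG00000289615) lies opposite 1137 of its bases. The log2 fold change was -1.02 (SE 0.30), or 2.03-fold lower, with an adjusted p of 0.0380 (edgeR), while the exact permutation test gave p = 0.2. The call was lost without ALDH_High library 2 (-0.95, adjusted p = 0.124), ALDH_High library 3 (-0.88, 0.127), ALDH_Low library 1 (-0.76, 0.154) or ALDH_Low library 2 (-0.97, 0.107), all by edgeR, and with limma on log2 TPM.

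**Figure D3:**
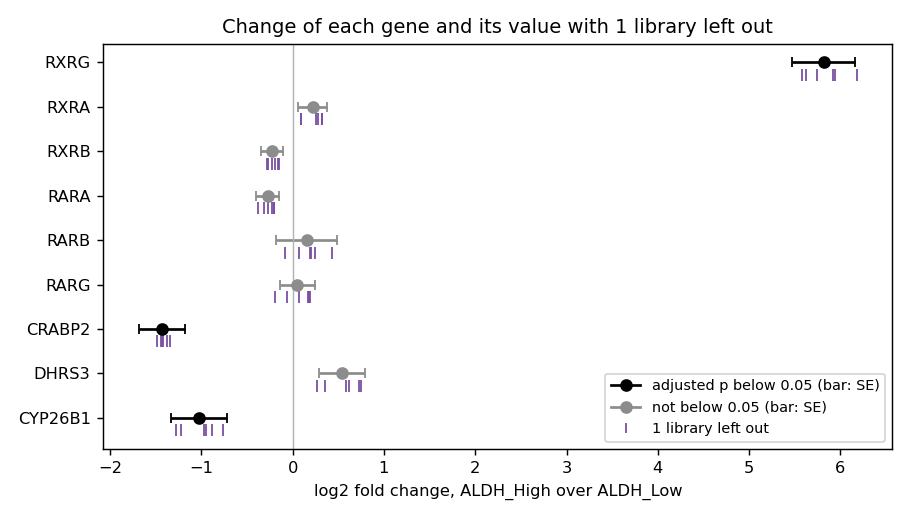
Log2 fold change of each of the 9 genes, ALDH_High over ALDH_Low, by edgeR, with its SE as a bar and short purple marks for the 6 fits that each leave out 1 library. Genes in black (RXRG, CRABP2, CYP26B1) had an adjusted p below 0.05. The marks of RARB and RARG fall on both sides of 0.

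Ordered by TPM in ALDH_High, RARG (40.1 ± 8.86, SD, n = 3), DHRS3 (34.4 ± 9.39) and RARA (32.6 ± 2.41) came first, with ranges that overlapped. RXRB (18.8 ± 0.999) and RXRA (16.1 ± 1.59) followed with overlapping ranges, then RXRG (8.02 ± 1.39), apart from both neighbours. CRABP2 (1.88 ± 0.206) and CYP26B1 (1.83 ± 0.319) overlapped, and RARB (1.12 ± 0.0579) was last. In ALDH_Low, RARA (38.3 ± 3.30, SD, n = 3) and RARG (37.8 ± 6.70) overlapped at the top, DHRS3 (23.0 ± 5.95) overlapped with RXRB (21.2 ± 1.08), and RXRA (13.5 ± 2.57) came next. CRABP2 (4.88 ± 0.458) and CYP26B1 (3.62 ± 1.40) overlapped, followed by RARB (0.968 ± 0.377). RXRG (0.138 ± 0.0574) was the lowest of the 9 in ALDH_Low, and sixth in ALDH_High.

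The rest of the pathway was followed through 7 lists with 110 genes, of which 74 were tested. Of these, 7 were higher and 11 lower in ALDH_High, together 24.3%, beside 20.6% of all genes tested, and their median log2 fold change was 0.035. Among the retinaldehyde dehydrogenases, ALDH1A3, the enzyme named in the study's title, was the only one high enough to test. It had 683, 1149 and 1088 CPM in ALDH_High and 345, 420 and 403 CPM in ALDH_Low, and rose by 1.32 on the log2 scale (SE 0.19, adjusted p = 0.000734, edgeR). ALDH_High library 1 was the lowest of its group and still above all ALDH_Low libraries. ALDH1A1, ALDH1A2 and ALDH8A1 had at most 5, 7 and 11 counts in any library.

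Of the 15 genes of retinol uptake, storage and binding, 6 were tested and 1 was higher, where 10.8% of all genes tested were. The higher one was LPL, a lipase that also releases retinol from circulating esters (3.82, SE 0.29, adjusted p = 2.13e-05, edgeR). STRA6, the cell surface receptor for retinol carried by its binding protein, did not pass (0.32, SE 0.24, adjusted p = 0.405, edgeR), and its value was 0.069 without ALDH_High library 1, 0.15 without ALDH_Low library 2 and 0.60 without ALDH_Low library 1. LRAT, which esterifies retinol for storage and was named after its values were seen, missed the threshold (0.61, SE 0.19, adjusted p = 0.0508, edgeR) and passed with the replicate block (0.61, adjusted p = 0.0461, edgeR).

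Of the 25 retinol and retinaldehyde oxidoreductases, 13 were tested. Of these, 1 was higher and 3 were lower, where 10.8% and 9.83% of all genes tested were. RDH11, a retinaldehyde reductase, rose by 0.43 (SE 0.12, adjusted p = 0.0305, edgeR), and its call was lost without any single ALDH_Low library (adjusted p up to 0.118). The aldo-keto reductases AKR1B1 (-0.84, SE 0.12), AKR1C3 (-1.85, SE 0.34) and AKR1B10 (-2.52, SE 0.53), which also act on many other carbonyls, were lower. Their adjusted p were 0.00108, 0.00392 and 0.00721 (edgeR). AKR1B10 had few counts, 8, 3 and 3 in ALDH_High and 41, 21 and 26 in ALDH_Low. It passed under all 12 alternatives that gave it a value, with a size that varied from -3.30 to -0.72. Reads of aldo-keto reductases can be shared with close paralogs, so their levels are uncertain. Of the 6 further genes of retinoic acid binding and clearance, 4 were tested and 1 was higher, where 10.8% of all genes tested were. This was UGT2B7, a glucuronosyltransferase with close paralogs (1.78, SE 0.50, adjusted p = 0.0298, edgeR). It had at most 37 counts in a library, and its call was lost when any single library other than ALDH_High library 2 was left out (adjusted p up to 0.0800). CYP26A1, the other CYP26 gene tested, did not pass (0.30, SE 0.60, adjusted p = 0.778, edgeR), had at most 17 counts and turned to -0.066 without ALDH_High library 3.

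Of 16 receptors that pair with RXR or share its ligands, 12 were tested, none was higher and 3 were lower, where 10.8% and 9.83% of all genes tested were. The other 9 did not pass, with values on both sides of 0. The vitamin D receptor VDR was at 23.9, 20.0 and 19.6 CPM in ALDH_High and 40.1, 42.8 and 38.0 CPM in ALDH_Low, and fell by 0.93 (SE 0.13, adjusted p = 0.000653, edgeR). NR1H3, the oxysterol receptor LXR alpha, fell by 1.16 (SE 0.22, adjusted p = 0.00482, edgeR). PPARG, a fatty acid receptor, fell by 0.63 (SE 0.16, adjusted p = 0.0219, edgeR), a call lost without ALDH_High library 2 (adjusted p = 0.0817), ALDH_High library 3 (0.0849) or ALDH_Low library 1 (0.0991).

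All 20 corepressors and coactivators were tested, and 1 was higher and 2 were lower, where 10.8% and 9.83% of all genes tested were. PRAME, a tumour antigen known as a repressor of RAR signalling, rose by 0.47 (SE 0.14, adjusted p = 0.0331, edgeR), a call lost without any single ALDH_Low library (adjusted p up to 0.114). TBL1X (-0.77, SE 0.14, adjusted p = 0.00385, edgeR) and GPS2 (-0.44, SE 0.14, adjusted p = 0.0444, edgeR), which sit in the corepressor complex, were lower. The GPS2 call was lost with the replicate block (-0.45, adjusted p = 0.0640, edgeR) and without any single library other than ALDH_High library 1 (adjusted p up to 0.166). With the block the coactivator NCOA2 passed as well (0.79, adjusted p = 0.0144, edgeR).

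Of 29 further retinoic acid target genes, 22 were tested. In ALDH_High 2 were higher and 3 lower, where 10.8% and 9.83% of all genes tested were. The median of the 22 on the log2 scale was 0.054. HOXB2, a homeobox gene, had 108, 128 and 115 CPM in ALDH_High and 38.7, 34.4 and 32.5 CPM in ALDH_Low (1.74, SE 0.12, adjusted p = 1.21e-05, edgeR). TFAP2C, a transcription factor, rose by 0.65 (SE 0.11, adjusted p = 0.00208, edgeR). DUSP1, a phosphatase of MAP kinases that responds to many stimuli, fell by 1.42 (SE 0.25, adjusted p = 0.00310, edgeR). TGM2, a transglutaminase, fell by 0.70 (SE 0.18, adjusted p = 0.0216, edgeR), and its call was lost without ALDH_High library 2 or 3 or ALDH_Low library 1 or 2 (adjusted p up to 0.0882). PLAAT4, listed under its older name RARRES3, had at most 32 counts and fell by 1.56 (SE 0.47, adjusted p = 0.0388, edgeR), a call lost without any single library other than ALDH_High library 1 (adjusted p up to 0.137). RARRES1 and RARRES2, named for their induction by retinoids, had 0 counts in all 6 libraries. The list's genes thus moved in both directions, and 17 of the 22 did not pass.

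**Figure D4:**
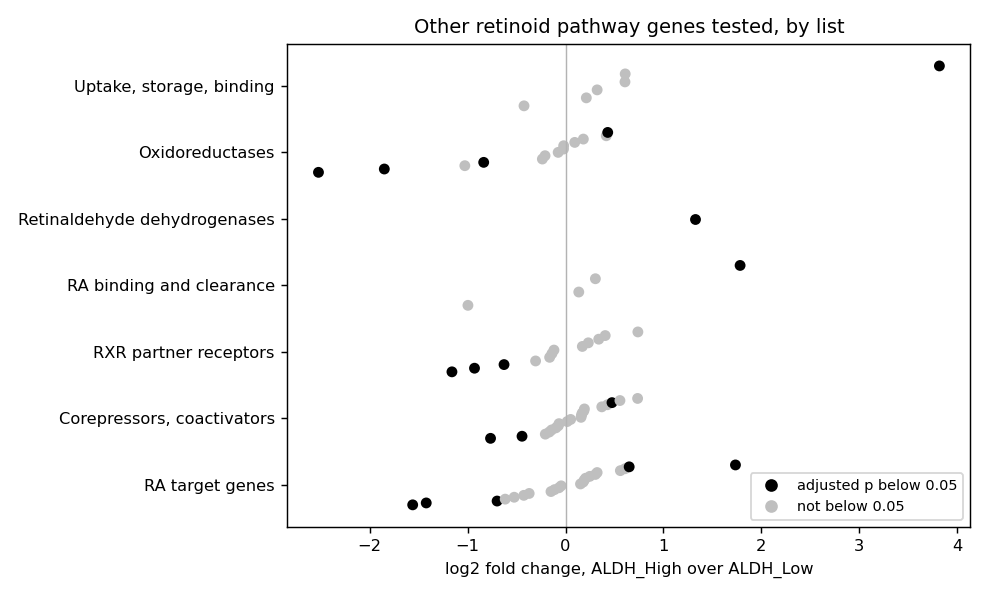
Log2 fold change, ALDH_High over ALDH_Low, of each tested gene in the 7 retinoid pathway lists, with genes at an adjusted p below 0.05 (edgeR) in black. Within a row the points are offset only to keep them apart. Black points lie on both sides of 0 for the oxidoreductases, cofactors and target genes, and only below 0 for the partner receptors.

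Genes with the most similar pattern to the 3 called genes were taken by the smallest root mean square difference of centred log2 CPM over the 6 libraries, among 14044 genes. For RXRG these were ITIH6 (0.28), GAS7 (0.35) and SLC18A1 (0.42), with log2 fold changes of 5.69, 4.88 and 5.21. For CRABP2 they were TES (0.054), JRK (0.067) and DAAM1 (0.071), with log2 fold changes of -1.33, -1.26 and -1.38. For CYP26B1 they were SEMA3D (0.16), AP000547.3 (0.16) and FLRT2 (0.20), with log2 fold changes of -1.19, -1.04 and -0.88. The distances are descriptions over libraries that also carry the group difference.

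The authors' deposited table also gives log2 coefficients of the high and low groups, each against a group named 1A3, whose libraries were not analysed here and whose nature the headers do not give. Both coefficients of a gene share that group, so they are given side by side. In the authors' deposited table the coefficient of DHRS3 was 5.37 (SE 0.65) for high and 4.80 (SE 0.65) for low. In the authors' deposited table, 72 of the genes tested had a larger coefficient in the high group and 73 in the low one. RARB had 3.24 (SE 0.67) and 3.06 (SE 0.67) in the authors' deposited table, with 200 and 178 genes above it. DHRS3 and RARB had the highest coefficients of the 9 for both groups in the authors' deposited table. Neither passed between ALDH_High and ALDH_Low in the main edgeR fit. DHRS3 passed with the replicate block and without a filter on low counts. Over the 16887 genes tested here that had a coefficient in the authors' deposited table, the medians were 0.021 and 0.014, and 0.663% were above 3 in both.

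RXRG had coefficients of 1.42 (SE 0.79) for high and -4.43 (SE 0.86) for low in the authors' deposited table. CYP26B1 had 1.02 (SE 0.50) and 2.01 (SE 0.49), and CRABP2 -0.36 (SE 0.39) and 1.05 (SE 0.37), in the authors' deposited table. In the authors' deposited table the 2 coefficients of RXRG and those of CRABP2 have opposite signs, and those of CYP26B1 are both positive. In the authors' deposited table RXRA had 0.57 and 0.33, RARA 0.18 and 0.43, RARG 0.22 and 0.14, and RXRB -0.12 and 0.088. ALDH1A3 had 1.66 for high and 0.32 for low in the authors' deposited table.

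**Figure D5:**
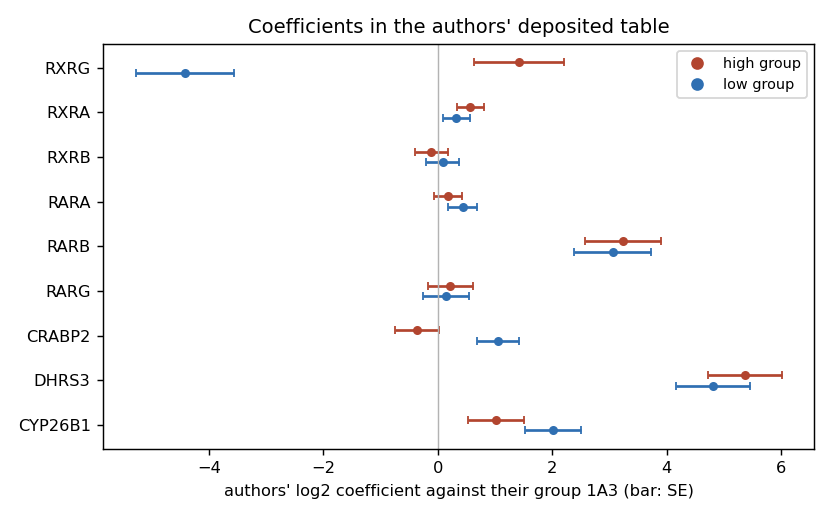
Log2 coefficients of the 9 genes from the authors' deposited table, high group in red and low group in blue, each against the group named 1A3, with the authors' SE as bars. DHRS3 and RARB lie above 3 in both groups, and RXRG lies on opposite sides of 0.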

How the data were processed

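RNA was measured in 6 libraries of sorted A375 cells, 3 per group. Per the labels' protocols, libraries were made with a stranded mRNA kit, and per the submitters' processing notes the tools included FastQC 0.11.3, STAR 2.5.1b, HTSeq 0.6.1 and DESeq2 with the build GRCh38, without roles or order. The authors deposited whole-number counts that were treated as estimated counts, because 133 to 177 genes per library had a count of 0 beside a TPM above 0. The authors also deposited TPM values, and, per the file headers, log2 coefficients with standard errors from a DESeq2 model, of which 226 genes with shifted cells were left out.

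After filterByExpr and TMM scaling, 17047 genes were tested in edgeR 4.0.16 under R 4.3.3 by the two-sided quasi-likelihood test (glmQLFit, then glmQLFTest) with Benjamini-Hochberg adjustment and a threshold of 0.05. Each SE was obtained from the fold change and its F statistic. CPM use TMM-scaled library sizes, and most similar genes used a prior count of 2 and a mean of at least 1 CPM. Shares, sums and ratios of TPM were compared with exact two-sided permutation tests. The fits were tested on simulated data. DESeq2 1.42.0 and limma 3.58.1 were alternatives, with other scalings, filters and pseudocounts and each library left out in turn. Rows without a gene name (261, 0.0213% to 0.0267% of counts) stayed in.

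Deviations from the group means correlated at 0.199, 0.133 and 0.114 between libraries of equal number (14071 genes with at least 1 mean CPM). Between libraries of unequal number the correlations ran from -0.170 to 0.030. The replicate block and the pairs of equal number are therefore given as alternatives. The main fit and the permutation tests are unpaired. The labels do not say what a number marks. Over all 17047 genes tested the values were 0.150, 0.0760 and 0.108 for equal numbers and -0.103 to 0.0235 for unequal numbers.

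Named genes are the 9 genes, up to 6 genes past the threshold per pathway list, the 3 genes most similar to each called gene, ALDH1A3, and others where so stated. FABP5, RDH10 and the lineage and cell type markers were named outside that rule, through the ratios and the marker lists. STRA6, CYP26A1, NCOA2, NR4A1 and HOXA4 were named outside it after their values were seen, as were the genes at 0. Members and lists were chosen with earlier results of these data known. Counts carry no molecular identifiers, so depth limits cover counting error only. A p that misses the threshold does not show that levels did not differ. Gene spans come from GENCODE 44 and promoter windows from RefSeq. Protein sequences were not analysed here, and 1 marker is not reported by name.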

Additional observations from a re-analysis of the deposited data

How the results depend on the processing

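RXRG passed under all 14 alternatives that gave it a value (2.98 to 6.18; a filter of 10 counts in every library removes it) and CRABP2 under all 15 (-1.48 to -1.03). RXRA, RXRB, RARB and RARG passed under none of 15. CYP26B1 passed under 8 of 15. It missed with limma on log2(TPM + 1) (-0.67, adjusted p = 0.135, or 0.276 without a filter) and on log2(TPM + 0.1) (-0.88, 0.132), and its leave-one-out values ran from -1.28 to -0.76. Leave-one-out values ran from -0.38 to -0.20 for RARA, from -0.088 to 0.43 for RARB, from -0.20 to 0.19 for RARG and from -9.79 to 0.78 TPM for summed RAR TPM, where RARB, RARG and the sum changed sign. DHRS3 passed without a filter on low counts (0.56, adjusted p = 0.00348, edgeR) and with the replicate block (0.53, 0.0182), under none of the other 13. Its own counts, 583 to 1391, were not low. Without the filter p-values fell for other genes too. That fit called 4466 genes, against 3513 in the main fit, and gave RXRG an adjusted p of 4.12e-59 (edgeR). Why DHRS3 passed in these fits was not tested. The replicate block called 3748 genes and changed no other call among the 9. In the pathway lists it added 4 calls (LRAT, NCOA2, NR4A1 and HOXA4) and removed GPS2. Some pathway calls were lost under more alternatives than those named with them. TBL1X passed under 14 of 15, PPARG under 9 of 15, and TGM2 and GPS2 under 8 of 15 each. UGT2B7 passed under 7 of 14 and PLAAT4 under 6 of 14. The count of all genes was 2006 with limma on log2(TPM + 1) without a filter, 1930 at an adjusted p below 0.01 and 2488 to 4221 with a library left out. Upper-quartile scaling moved the median log2 fold change to -0.062, and higher calls to 46.0% from 52.3% of all calls, with the 9 genes' calls as before. From counts without length correction, the RXRG share differed by 11.2 percentage points in place of 18.2. With 1 added to each TPM, the log2 CRABP2 to FABP5 ratio differed by -1.22 in place of -1.57. Of 382 alternative values of 26 other pathway genes named, 325 kept their side of the threshold and direction, 42 lost a call, 14 gained one and 1 changed sign, that of CYP26A1 without ALDH_High library 3 (leave-one-out values from -0.066 to 0.75). Depth limits RARB, CRABP2, CYP26A1, PLAAT4, AKR1B10 and RXRG in ALDH_Low, with few counts. The 3 libraries per group limit every permutation p to 0.1 or more.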
